A study of Mus musculus with 6 samples.

Results

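The genes for the protein subunits of the mitochondrial ribosome were described in bulk RNA sequencing of LβT2 cells, a mouse pituitary gonadotrope line. Members were the protein-coding rows whose mouse symbol is Mrpl or Mrps, a number and at most 1 further letter, which gave 78 of the 47069 genes counted. All 6 libraries came from cells of this 1 line at passage 14, grown in DMEM with 10% serum and treated with GnRH at 2 nM for 40 min, and no vehicle-treated library was compared. The 3 Fresh libraries were made from cells lysed directly after pelleting, and the 3 RNA-Best libraries from cells kept in the RNA-Best stabilization reagent for a minimum of 4 days at 4 °C before lysis. The question was whether the transcript levels of the members differed between stabilized and fresh cells. Whether the replicates of a group were grown as separate cultures is not stated in the labels, so that p-values measure the spread between these libraries, which may be technical.

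The mitochondrial ribosome translates the few mRNAs of the mitochondrial genome, all of which code for core subunits of the respiratory chain and the ATP synthase. Its ribosomal RNAs are transcribed inside the organelle, while its proteins are encoded in the nucleus, made in the cytosol and imported, so that assembly of a particle draws on both genomes. Large subunit proteins surround the peptidyl transferase centre and the exit tunnel, small subunit proteins hold the mRNA and the decoding site, and many proteins of either subunit have no bacterial counterpart. Mrps18a and Mrps30 carry small subunit symbols but sit in the large subunit and were counted there. Mrps36 is now known as a component of the 2-oxoglutarate dehydrogenase complex and was placed in neither subunit.

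Total counts were lower in every RNA-Best library than in every Fresh library, at 4909418 to 11999363 against 14477304 to 47438746, and the Fresh total was 3.99 times the RNA-Best total. TMM scaling factors lay between 0.9942 and 1.007. Of the 6 gonadotrope markers, 5 were measured, with Fshb at 0, and their summed level was 3070 to 3110 CPM (counts scaled to a common library size) in Fresh and 2540 to 2600 CPM in RNA-Best. Most of this sum was Cga, at 1800 to 1840 CPM and 1410 to 1440 CPM, while Gnrhr was at 110 to 126 CPM in Fresh and at 158 to 172 CPM in RNA-Best, and the ranges of Lhb overlapped. The 5 markers of other pituitary endocrine cells summed to 0.77 to 1.11 CPM and 1.22 to 2.27 CPM, with 2 of them at 0. The 6 markers of other cells summed to 42.1 to 43.6 CPM and 37.6 to 40.7 CPM, with 3 at 0. Nearly all of the pituitary sum was Tshb, at 0.77 to 1.04 CPM and 1.22 to 2.27 CPM. Nearly all of the sum for other cells was Pecam1, at 42.0 to 43.4 CPM and 37.5 to 40.7 CPM. The part of these marker differences in the member results was not tested.

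Of the 78 members, 77 passed the filter on low counts and were tested together with all 14736 genes that passed it. Transcripts of 59 members fell in RNA-Best, none rose, and 18 did not pass a false discovery rate of 5% (edgeR quasi-likelihood test, Benjamini-Hochberg over all tested genes). The median log2 fold change of RNA-Best over Fresh was -0.23, with a range from -0.50 in Mrpl55 to 0.14 in Mrps34, beside a median of -0.0074 over all tested genes. Among all tested genes 50.8% were called in either direction, 24.8% lower and 26.0% higher, whereas 76.6% of the tested members were lower. The estimate was negative in 75 of the 77 members, or 97.4%, against 50.9% of all tested genes. No member reached an absolute log2 fold change of 1, and only Mrpl55 exceeded 0.5. With every library thinned to the total of the shallowest, 48 members were lower and none higher, beside 19.3% of all genes lower. Tested against a 1.2-fold change (edgeR's glmTreat), 10 of the 77 members were lower and none higher, beside 2.82% of all tested genes lower and 1693 of 14736 called in either direction. In bulk cells, fewer cells of a type and less RNA per cell cannot be told apart, and CPM values are shares of each library.

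**Figure D1:**
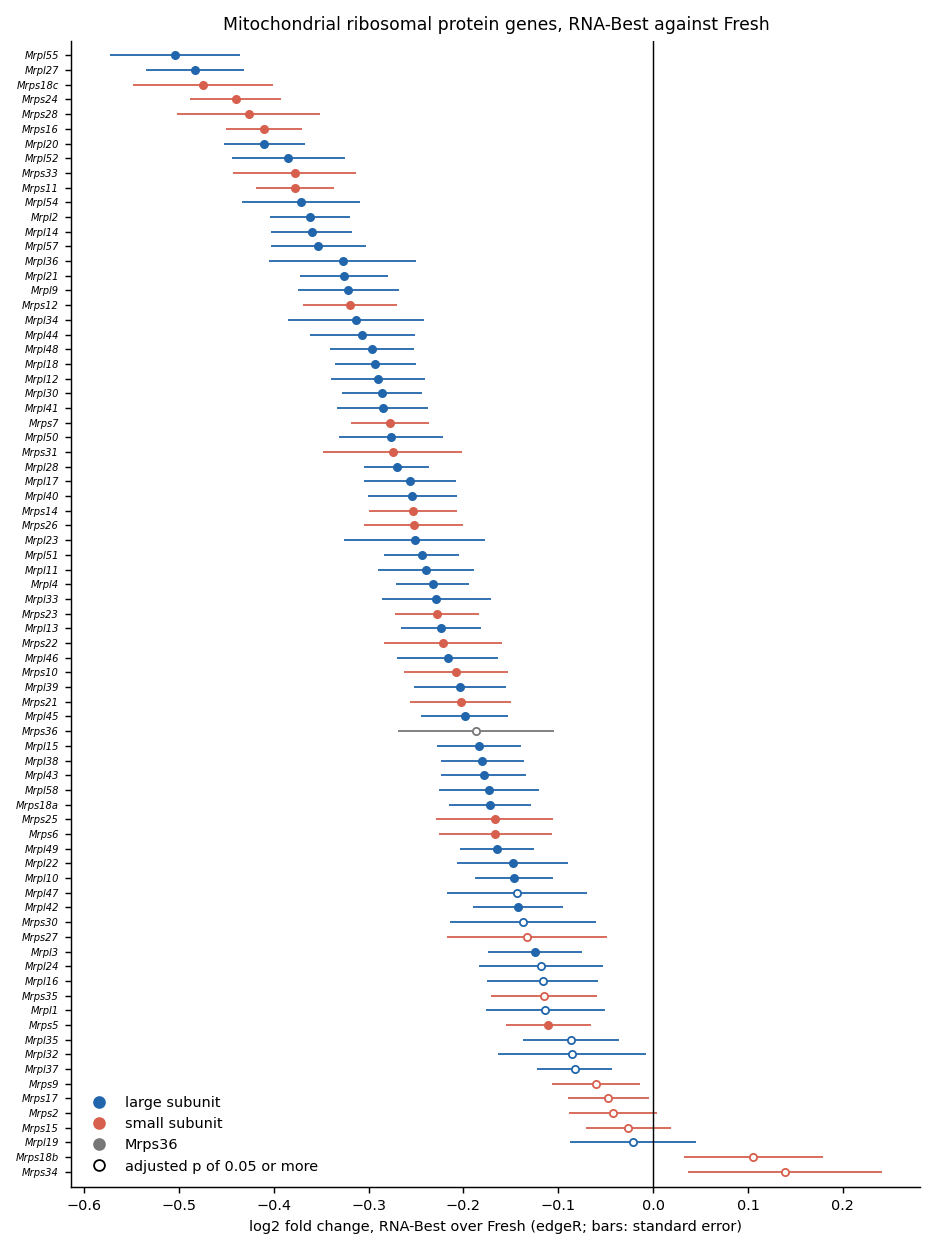
Log2 fold change of RNA-Best over Fresh (x axis) for each of the 77 tested members (y axis), with bars for the standard error, blue for the large subunit, red for the small subunit and open points where the adjusted p was 0.05 or more. All but 2 of the points, Mrps18b and Mrps34, lie left of 0, and both of those are open.

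The summed level of the 78 members was 4379, 4350 and 4532 CPM in the Fresh libraries. It was 3697, 3699 and 3774 CPM in the RNA-Best libraries. The groups did not overlap, with means of 4420 ± 97.8 CPM and 3723 ± 44.04 CPM (SD, n = 3 each) and a ratio of 0.842. Members thus made up 0.442% of the Fresh counts and 0.372% of the RNA-Best counts. Gene by gene, all 3 RNA-Best values lay below all 3 Fresh values in 64 of the 77 tested members, or 83.1%, and the ranges overlapped in 13. The same pattern held for 28.9% of all tested genes. Mrps25 was the only member called lower whose ranges overlapped, while Mrpl24, Mrpl35, Mrpl37, Mrps30, Mrps35 and Mrps36 had separate ranges but did not pass the test.

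Both subunits showed lower estimates, where 24.8% of all tested genes were called lower. Of the 51 large subunit members, 50 were tested and 41 fell, with a median log2 fold change of -0.24 and every estimate negative. Of the 26 small subunit members, all were tested and 18 fell, with a median of -0.21. The summed large subunit level was 3072 ± 62.94 CPM in Fresh and 2577 ± 37.68 CPM in RNA-Best, and the small subunit level 1333 ± 34.92 CPM and 1133 ± 12.08 CPM (SD, n = 3 each). The ratio of the 2 sums was 2.301, 2.321 and 2.292 in the Fresh libraries and 2.237, 2.292 and 2.293 in the RNA-Best libraries. The ranges of this ratio overlapped, with means of 2.305 ± 0.0151 and 2.274 ± 0.0321, so that a shift in the balance of the subunits was not seen beyond the spread between libraries. By the class of the protein in the ribosomal nomenclature, 35 of the 46 members with a bacterial counterpart fell, with a median of -0.24, and 24 of the 30 tested mitochondria-specific members fell, with a median of -0.21. Mrpl55, whose class is uncertain, was counted with the former.

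**Figure D2:**
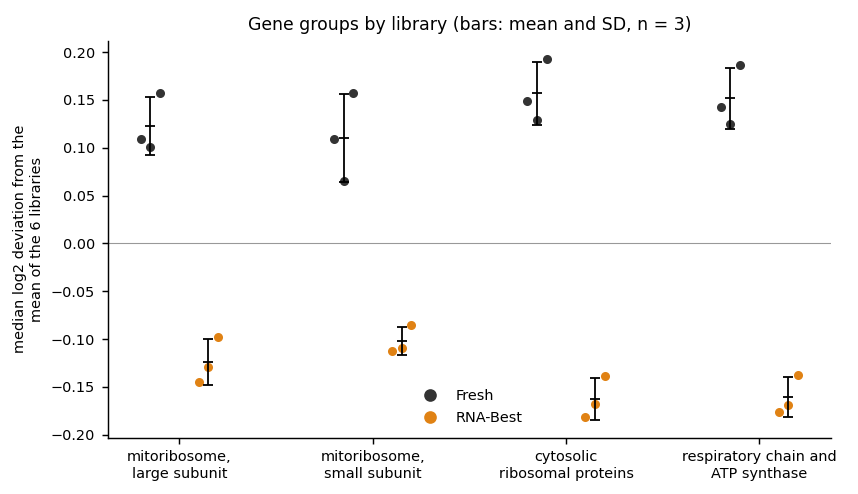
Median log2 deviation of the genes of 4 groups from their mean over the 6 libraries (y axis), with 1 point per library, dark for Fresh and orange for RNA-Best, and bars for mean and SD (n = 3). Large subunit members lay at 0.109, 0.101 and 0.157 in Fresh and at -0.145, -0.129 and -0.0981 in RNA-Best, and in each of the 4 groups no RNA-Best library reached a Fresh library.

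The 6 lowest fold changes among the members that passed the test were in Mrpl55, Mrpl27, Mrps18c, Mrps24, Mrps28 and Mrps16. Mrpl55 (ENSMUSG00000036860.14, chr11:59202486-59206134, plus strand, GRCm38) was at 28.4, 29.1 and 28.9 CPM in Fresh and at 22.2, 21 and 18.5 CPM in RNA-Best. Its log2 fold change was -0.50 ± 0.0685 (SE, edgeR adjusted p = 1.29e-07), and the groups were apart by more than the spread within either. Mrpl27 lies beside the peptidyl transferase centre of the large subunit. It was at 57.4, 57.9 and 63.6 CPM in Fresh and at 41.5, 41.3 and 43.0 CPM in RNA-Best, a log2 fold change of -0.48 ± 0.0517 (edgeR adjusted p = 8.94e-10). Fresh 3 was the highest of the 6 libraries for this gene, and the lowest Fresh value exceeded the highest RNA-Best value.

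The other members at this end belong to the small subunit. Mrps24, the counterpart of a bacterial protein at the mRNA entry site, was at 58.0, 57.2 and 59.3 CPM in Fresh and at 42.2, 41.5 and 43.6 CPM in RNA-Best, with a log2 fold change of -0.44 ± 0.0481 (edgeR adjusted p = 1.42e-09). The values were close within each group, and the group means were 58.2 and 42.4 CPM. Mrps16, in which mutations cause a human respiratory chain deficiency, was at 113, 115 and 119 CPM against 83.3, 84.2 and 90.9 CPM, with a log2 fold change of -0.41 ± 0.04 (edgeR adjusted p = 1.14e-10). Mrps28 was at 29.4, 27.7 and 34.0 CPM against 23.0, 21.4 and 21.4 CPM, with a log2 fold change of -0.43 ± 0.0752 (edgeR adjusted p = 1.16e-05). Its Fresh values were the more scattered, and they stayed above all RNA-Best values.

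At the other end of the members that passed were Mrpl49, Mrpl22, Mrpl10, Mrpl42, Mrpl3 and Mrps5. Mrpl49 had CPM values of 107, 108 and 110 in Fresh against 93.2, 93.4 and 101 in RNA-Best, with a log2 fold change of -0.16 ± 0.0386 (edgeR adjusted p = 0.00052). Mrpl22, a protein that lines the exit tunnel, was at 34.2, 33.2 and 32.0 CPM against 28.8, 30.9 and 30.8 CPM, with a log2 fold change of -0.15 ± 0.0585 (edgeR adjusted p = 0.0336). Its groups were separate by no more than the spread within them, and the call was lost without Fresh 1 (adjusted p = 0.0933), Fresh 2 (0.0502), RNA-Best 1 (0.18) or RNA-Best 3 (0.0673). Mrps5, a small subunit protein near the decoding site, was at 69.1, 66.4 and 69.5 CPM against 59.7, 63.9 and 65.2 CPM, with a log2 fold change of -0.11 ± 0.0448 (edgeR adjusted p = 0.0382). Its call was lost without Fresh 1 (adjusted p = 0.0974), Fresh 3 (0.061), RNA-Best 1 (0.275) or RNA-Best 2 (0.0628). Without RNA-Best 1 the Mrps5 estimate was -0.0714. Mrpl42 gave -0.14 ± 0.0473 (edgeR adjusted p = 0.0115), a call lost without RNA-Best 1 (0.0781). Mrpl3 gave -0.12 ± 0.05 (edgeR adjusted p = 0.0365), a call lost without Fresh 1 (0.0861), RNA-Best 1 (0.0964) or RNA-Best 3 (0.211). After thinning to the shallowest library Mrpl49 (-0.114, adjusted p = 0.0986), Mrpl22 (-0.133, adjusted p = 0.276), Mrpl10 (-0.0278, adjusted p = 0.776) and Mrpl42 (-0.111, adjusted p = 0.23) no longer passed edgeR's test. In DESeq2's Wald test Mrpl22 (adjusted p = 0.155), Mrpl42 (0.0774), Mrpl3 (0.162) and Mrps5 (0.123) did not pass.

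**Figure D3:**
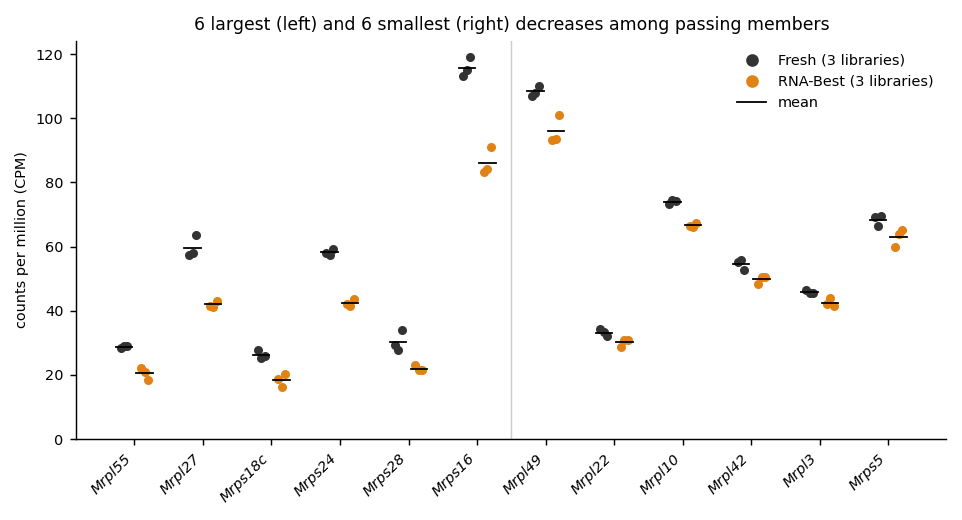
Level in CPM (y axis, from 0) in each of 3 Fresh (dark) and 3 RNA-Best (orange) libraries, with lines for the means, for the 6 members with the lowest and the 6 with the highest log2 fold change among those that passed with separate ranges. Mrpl55 fell from a mean of 28.8 to 20.6 CPM at the left, and Mrps5 from 68.3 to 62.9 CPM at the right.

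The members with the smallest estimates were Mrpl19, Mrps15 and Mrps2. Mrpl19 was at 29.3, 27.0 and 29.8 CPM in Fresh and at 28.8, 24.0 and 29.2 CPM in RNA-Best (log2 fold change -0.02 ± 0.0664, edgeR adjusted p = 0.811). Mrps15 was at 63.2, 63.5 and 66.7 CPM against 62.5, 60.0 and 64.6 CPM (log2 fold change -0.03 ± 0.0444, edgeR adjusted p = 0.72). Mrps2, at 51.7, 53.1 and 53.2 CPM against 52.1, 50.4 and 50.5 CPM, gave -0.04 ± 0.0465 (edgeR adjusted p = 0.473). The groups overlapped in each, with RNA-Best 2 the lowest library for Mrpl19, below all Fresh values. Exons of Gcfc2 on the other strand cover 36.0% of the Mrpl19 exonic bases. Whether reads were counted by strand is not given in the sources used here, and the part of this overlap was not tested.

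Without an offset, the only positive estimates were those of Mrps18b and Mrps34, and neither passed the test. Mrps18b was at 18.7, 18.8 and 20.0 CPM in Fresh and at 19.7, 18.1 and 21.9 CPM in RNA-Best (log2 fold change 0.11 ± 0.0733, edgeR adjusted p = 0.238). Without RNA-Best 3 its estimate was 0.0143, and after thinning it was 0.00274. Mrps34, described after its values were seen, had the fewest reads of the tested members, with 8.37, 8.24 and 9.32 CPM in Fresh against 9.41, 9.56 and 9.14 CPM in RNA-Best (log2 fold change 0.14 ± 0.102, edgeR adjusted p = 0.269). Exons of other genes covered 30.5% of the Mrps18b exonic bases (Gm16279) and 77.8% of those of Mrps34 (Nme3 and Mapk8ip3). The part of this overlap in their values was not tested.

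Mrps18a, Mrps18b and Mrps18c are paralogs that take different places in the particle, Mrps18a in the large and the other two in the small subunit. Their levels differed. Per kilobase of the principal transcript, the mean Fresh level was 94.7 ± 3.60 CPM for Mrps18a, 41.2 ± 1.93 CPM for Mrps18c and 17.8 ± 0.685 CPM for Mrps18b (SD, n = 3). Mrps18a was at 85.5, 80.0 and 85.6 CPM in Fresh and at 71.2, 76.7 and 74.8 CPM in RNA-Best, and it fell by 0.17 ± 0.0433 on the log2 scale (edgeR adjusted p = 0.00111), a call lost with the GC offset (-0.08, adjusted p = 0.108) and the principal transcript length offset (0.01, adjusted p = 0.92). Mrps18c was at 27.7, 25.3 and 25.8 CPM against 18.7, 16.3 and 20.3 CPM, and it fell by 0.47 ± 0.0734 on the log2 scale (edgeR adjusted p = 1.36e-06). Ranges were separate for these genes and overlapped for Mrps18b. The differences between the paralogs in response were not tested, and 23.2% of the Mrps18c exonic bases lie in exons of Gm43511 on the same strand.

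The stalk of the large subunit, which recruits translation factors, is built on Mrpl10, Mrpl11 and Mrpl12, and all 3 genes fell, although the call of Mrpl10 was lost after thinning and with offsets for length or GC content. Mrpl10 was at 73.4, 74.4 and 74.1 CPM in Fresh and at 66.4, 66.1 and 67.4 CPM in RNA-Best, the smallest scatter among the stalk genes (log2 fold change -0.15 ± 0.0415, edgeR adjusted p = 0.00333). Mrpl11 was at 58.5, 59.9 and 62.1 CPM against 45.8, 52.3 and 53.7 CPM (log2 fold change -0.24 ± 0.0506, edgeR adjusted p = 0.000151). Mrpl12, which also binds the mitochondrial RNA polymerase, was at 69.9, 71.0 and 73.5 CPM against 52.4, 65.5 and 59.2 CPM (log2 fold change -0.29 ± 0.0497, edgeR adjusted p = 7.43e-06). RNA-Best 1 was the lowest library for Mrpl11 and Mrpl12, and no RNA-Best value reached a Fresh value in any stalk gene. With the exonic length offset Mrpl12 was at -0.15.

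Mrpl45, Mrpl44 and Mrps12, named for their known roles, all fell. Mrpl45 anchors the ribosome to the inner membrane, and it was at 65.2, 63.1 and 66.0 CPM in Fresh and at 56.2, 52.9 and 57.8 CPM in RNA-Best (log2 fold change -0.20 ± 0.0456, edgeR adjusted p = 0.000396). Mrpl44, which has an RNase III-like fold, was at 45.5, 43.3 and 48.0 CPM against 36.7, 37.0 and 35.9 CPM (log2 fold change -0.31 ± 0.055, edgeR adjusted p = 1.52e-05). Mrps12, part of the decoding site, was at 72.6, 72.1 and 77.0 CPM against 64.7, 53.3 and 56.8 CPM (log2 fold change -0.32 ± 0.0493, edgeR adjusted p = 1.31e-06). The lowest Fresh value exceeded the highest RNA-Best value in each. With the exonic length offset Mrpl45 missed the threshold (adjusted p = 0.0542), and Mrpl44 and Mrps12 were at -0.17 and -0.16. Mrps36 was at 15.1, 16.0 and 15.9 CPM against 12.9, 15.1 and 13.8 CPM, and its log2 fold change of -0.19 ± 0.0826 did not pass (edgeR adjusted p = 0.0579). It passed as lower without a filter (0.0244), with the GC offset (0.0103), after thinning (0.0475) and without Fresh 1 (0.0352) or RNA-Best 2 (0.0493).

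Levels differed widely between members. The mean Fresh level per kilobase of the principal transcript had a median of 38.6 CPM over the 77 tested members and spanned a 27.4-fold range, with a median of 43.8 CPM in the large and 31.7 CPM in the small subunit. The highest levels per kilobase were those of Mrpl20 at 148.5 ± 8.47 CPM, Mrpl28 at 144.9 ± 2.96 CPM, Mrpl14 at 128.0 ± 2.19 CPM and Mrpl4 at 109.5 ± 3.93 CPM (SD, n = 3). The first 2 of these overlapped within their SD, and the others stood apart. At the low end were Mrpl47 at 6.55 ± 0.322 CPM, Mrpl19 at 5.74 ± 0.297 CPM, Mrpl32, whose import form is cut by the inner membrane m-AAA protease, at 5.64 ± 0.104 CPM, and Mrps30 at 5.42 ± 0.228 CPM. These last 3 did not differ beyond their spread. The order depends in part on the transcript chosen, and its Spearman correlation with levels per kilobase of all exons was 0.786 over the 77 genes.

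All 4 of the highest members fell, and none of the 4 lowest passed in the test without an offset. Mrpl20 was at 112, 108 and 121 CPM in Fresh and at 83.2, 82.0 and 87.0 CPM in RNA-Best (log2 fold change -0.41 ± 0.0428, edgeR adjusted p = 5.25e-10). Mrpl28, at 154, 152 and 158 CPM against 126, 131 and 127 CPM, gave -0.27 ± 0.0342 (edgeR adjusted p = 3.06e-08). Mrpl14 gave -0.36 ± 0.0425 (edgeR adjusted p = 7.28e-09) and Mrpl4 gave -0.23 ± 0.0383 (edgeR adjusted p = 3.95e-06). The call of Mrpl4 was lost after thinning (-0.12, adjusted p = 0.0875) and with the principal transcript length offset (-0.09, adjusted p = 0.0731). With the exonic length offset Mrpl20 was at -0.28, Mrpl28 at -0.12 and Mrpl14 at -0.19. Among the lowest, Mrpl47 passed as lower without a filter (adjusted p = 0.0332) and without RNA-Best 3 (0.018), Mrpl32 with the GC offset (0.00643), Mrps30 with the exonic length (0.0118) and GC (0.00398) offsets and Mrpl19 with the principal transcript length offset (0.0465) in edgeR's test. Over the 77 members, the log2 fold change and the Fresh level per kilobase had a Spearman correlation of -0.454, which shares its libraries and the transcript length with the values compared. The counts behind a member ranged from 47 for Mrps34 in RNA-Best 2 to 7169 for Mrpl28 in Fresh 2, with a median of 222 per member in the shallowest library. The median coefficient of variation of a member was 3.06% in Fresh and 4.36% in RNA-Best.

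Mrpl53 (ENSMUSG00000030037.9, chr6:83109040-83109939, plus strand, GRCm38) was the 1 member that was not tested. Every library had a count of 0 for it. By counting error alone, 0 counts leave room for 3, or 0.0632 CPM in the deepest library and 0.611 CPM in the shallowest. Exons of the locus Gm42688 on the same strand cover 88.0% of its exonic bases, and this locus had 55, 75 and 18 counts in Fresh and 19, 7 and 27 counts in RNA-Best. The part of this overlap in the count of 0 was not tested.

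Members differ in length, and length moved with the fold change in these data. The exonic length of a gene and its log2 fold change had a Spearman correlation of 0.504 over the 77 members and 0.523 over 14677 tested genes with a length and a GC content in the annotation. Among genes with up to 1000 exonic bases, the median log2 fold change was -0.34 for the 8 members, all of which fell, and -0.22 for all tested genes, of which 35.6% fell. From 1000 to 2000 bases it was -0.29 for 22 members, of which 20 fell, and -0.18 for all, of which 44.9% fell. From 2000 to 4000 bases 19 of 25 members fell, beside 35.3% of all tested genes, with medians of -0.22 and -0.096. From 4000 to 10000 bases 12 of 22 members fell, beside 13.3% of all tested genes, with a median of -0.14 where that of all tested genes was 0.088. In each of these classes the member median was the lower, and no member was longer. In classes of principal transcript length the member median was the lower throughout as well, but by little among the shortest genes. There it was -0.251 for 11 members, beside -0.237 for all tested genes of that class. In the next class it was -0.286 for 25 members, beside -0.213. The gap was widest in the longest class, at -0.167 for 3 members beside 0.275.

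**Figure D4:**
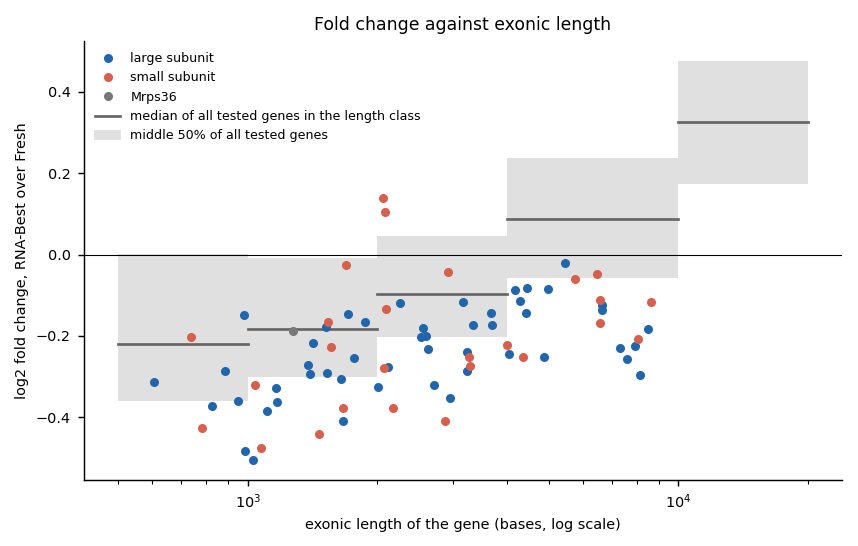
Log2 fold change of RNA-Best over Fresh (y axis) against exonic length in bases (x axis, log scale) for the 77 tested members, coloured by subunit, over the median (line) and the middle 50% (grey) of all tested genes in 5 length classes. Between 4000 and 10000 bases all 22 members lie below the median of 0.088 of all tested genes, and the 8 members of up to 1000 bases have a median of -0.34.

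An offset for exonic length, fitted over all tested genes, expresses each fold change relative to genes of like length. With it, 47 members were lower and 2 higher, with a median log2 fold change of -0.16, and 43 of the 59 members called without the offset were still called lower. Over all genes tested with this offset, 20.5% were lower and 18.7% higher. In the large subunit 29 of 50 were then lower, and in the small subunit 18 of 26 were lower and 2 higher. The members higher with the offset were Mrps18b (log2 fold change 0.22, edgeR adjusted p = 0.0166) and Mrps34 (0.25, adjusted p = 0.0487). Mrps9, Mrps17, Mrps30 and Mrps35 were called lower with this offset and not without one. An offset for the length of the principal transcript alone left 42 members lower and 3 higher, with a median of -0.15, beside 18.4% of all genes lower and 17.1% higher, and 36 members were lower under both offsets. The 3 higher ones were Mrps18b, Mrps34 and Mrps15 (0.15, edgeR adjusted p = 0.00668), and Mrpl19 was called lower with it (-0.17, adjusted p = 0.0465). An offset for GC content gave 64 members lower and 1 higher, beside 22.2% and 24.7% of all genes, and 55 of the 59 were among them. Mrpl10 (-0.09, adjusted p = 0.0813) and Mrps18a (-0.08, adjusted p = 0.108) no longer passed with it, and Mrpl4 was at -0.095 and Mrpl12 at -0.188.

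Among the genes described above, Mrpl55 (-0.34, edgeR adjusted p = 0.000138), Mrpl27 (-0.32, adjusted p = 4.94e-06), Mrps16 (-0.33, adjusted p = 1.83e-08) and Mrps18c (-0.32, adjusted p = 0.000707) were still lower with the exonic length offset. Mrps24 (-0.30, edgeR adjusted p = 4.48e-06) and Mrps28 (-0.25, adjusted p = 0.00866) were lower with it too. Mrpl49 (-0.04, adjusted p = 0.417), Mrpl10 (-0.02, adjusted p = 0.801) and Mrpl22 (0.02, adjusted p = 0.891) were not, and Mrpl42 (-0.10, adjusted p = 0.079) and Mrpl45 (-0.11, adjusted p = 0.0542) missed the threshold. The estimates of the long genes Mrpl3 (-0.23, adjusted p = 0.000302) and Mrps5 (-0.21, adjusted p = 0.000239) moved further from 0. For Mrps18a the 2 lengths gave different answers, at -0.13 (adjusted p = 0.0121) with 3690 exonic bases and 0.01 (adjusted p = 0.92) with the 884 bases of its principal transcript.

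**Figure D5:**
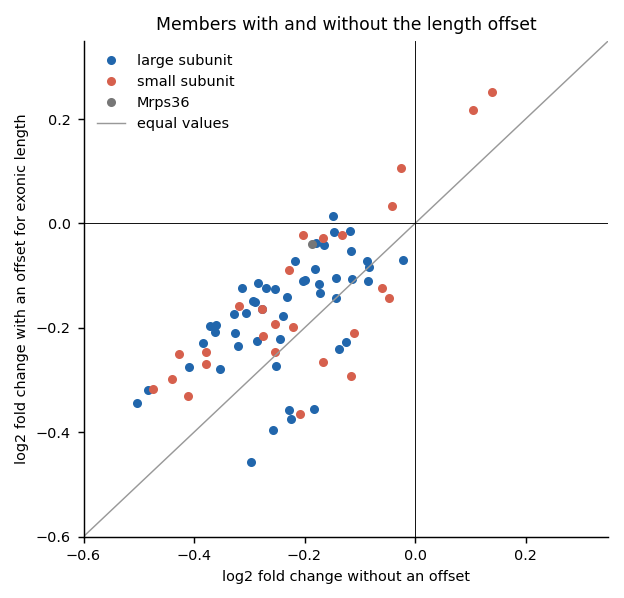
Log2 fold change with the offset for exonic length (y axis) against that without it (x axis) for the 77 tested members, coloured by subunit, with a line of equal values. Most points lie above the line and below 0, such as Mrpl55 at -0.50 and -0.34, while long members such as Mrpl3, at -0.12 and -0.23, lie below the line.

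The 5 mitoribosomal subunits whose symbols fall outside the rule were compared from a separate list. Dap3, a GTP-binding protein of the small subunit, fell from 97.8, 97.5 and 102 CPM to 83.7, 89.9 and 86.4 CPM (log2 fold change -0.19 ± 0.0394, edgeR adjusted p = 9.7e-05). Chchd1 (-0.29, adjusted p = 2.36e-06), Aurkaip1 (-0.35, adjusted p = 8.44e-09) and Gadd45gip1 (-0.28, adjusted p = 0.0451, with overlapping ranges) fell in the same test. Ptcd3, a pentatricopeptide repeat protein of the small subunit, was the exception, with CPM values of 50.7, 49.6 and 52.9 in Fresh and 56.6, 59.8 and 59.9 in RNA-Best. Its groups were separate in the opposite direction (log2 fold change 0.21 ± 0.0465, edgeR adjusted p = 0.000226). It has 6841 exonic bases, and its value with the exonic length offset was 0.10. With that offset Dap3 was at -0.29, Chchd1 at -0.12, Aurkaip1 at -0.22 and Gadd45gip1 at -0.18. Of the 5 genes, 3 were then called lower and 0 higher. With the principal transcript length offset 2 were lower and 1 higher, and the only positive estimate was 0.243.

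Genes with related roles were listed separately. A list of 16 genes held mitochondrial translation factors and genes of other roles, such as Slirp and Cox14. Of these 16, 5 fell and 3 rose, with a median of 0.077, where 24.8% of all tested genes were lower and 26.0% higher. The lowest that passed were Slirp, which stabilizes mitochondrial mRNAs (-0.46, edgeR adjusted p = 1.05e-06), and Cox14, which assists in making a cytochrome oxidase subunit (-0.40, adjusted p = 3.31e-10), and the highest that passed were the translational GTPase Guf1 (0.22, adjusted p = 0.00142) and the initiation factor Mtif2 (0.21, adjusted p = 0.00627). The ranges of Mtif2 overlapped, and Guf1, with 10372 exonic bases, was at -0.0171 with the exonic length offset. For the 16 genes this offset gave 3 lower and 3 higher, with a median of -0.0501. The principal transcript length offset gave 3 lower and 4 higher, with a median of -0.00517. Of 31 assembly factors, 12 fell and 1 rose, with a median of -0.14, but 6 fell with the exonic and 2 with the principal transcript length offset. The lowest that passed were Mpv17l2 (-0.46, edgeR adjusted p = 3.16e-06) and Ybey (-0.43, adjusted p = 0.0366), and the gene that rose was the GTPase Gtpbp8 (0.42, adjusted p = 2.48e-05). None of the 7 genes of mitochondrial transcription passed the test without an offset. The GC offset gave 2 lower, the exonic length offset 1 higher and the principal transcript length offset 2 lower. The median exonic length was 3458 bases for the list of 16 genes and 3527 for the assembly factors, against 2533 for the members.

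The ribosomal RNAs of the particle were counted in these polyadenylated RNA libraries too, where their level is not that of total ribosomal RNA. The small subunit RNA, mt-Rnr1, was at 147, 156 and 157 CPM in Fresh and at 145, 163 and 158 CPM in RNA-Best (log2 fold change 0.01 ± 0.0372, edgeR adjusted p = 0.792). The large subunit RNA, mt-Rnr2, was at 173, 175 and 174 CPM against 190, 217 and 212 CPM, and it rose (log2 fold change 0.24 ± 0.0351, edgeR adjusted p = 5.19e-07). Its groups were separate in the direction opposite to the members. For the cytosolic ribosomal proteins, 76 of 78 tested genes fell and 1 rose, with a median of -0.32, and for the nuclear respiratory chain and ATP synthase genes 71 of 75 fell, with a median of -0.30. With the exonic length offset these medians were -0.19 and -0.17, where that of the members was -0.16, and with the principal transcript length offset they were -0.131 and -0.134, where that of the members was -0.147.

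The members lie on 17 chromosomes, most often on chromosome 11 with 11 genes. The start site of 22 of the 78 lies within 1000 bases of the start of another protein-coding gene on the opposite strand. Of the 20 tested partners that were not members themselves, 5 fell and 2 rose, beside 24.8% of all tested genes lower and 26.0% higher, with a median of -0.05 and a median exonic length of 4522 bases. Mrps18c and Helq, a DNA helicase gene, start 29 bases apart and moved in opposite directions, with Helq at a log2 fold change of 0.21 (edgeR adjusted p = 0.0143) and 5069 exonic bases. Mrpl51 and the condensin gene Ncapd2 did likewise, at -0.24 (edgeR adjusted p = 2.84e-06) and 0.23 (adjusted p = 2.05e-08). In 1 case both partners were members, Mrpl46 of the large and Mrps11 of the small subunit, whose starts are 30 bases apart, and both fell, at -0.22 (edgeR adjusted p = 0.000896) and -0.38 (adjusted p = 1.5e-09). Their exons overlap on opposite strands, and the part of this overlap in their values was not tested.

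Nuclear genes for mitochondrial proteins often carry promoter elements of ETS family factors, NRF1 and YY1, and such elements were searched on both strands in RefSeq promoters (GRCm38.p6, 250 bases before to 50 after the start), in which 69 members were matched and 9 were not. The ETS core CCGGAAG stood in 26 members, or 37.7%, beside 20.3% of 10084 tested genes and 8.86% of all 32841 promoters. Here and below, a gene was counted if any of its promoters matched, while the share of all promoters is over single promoters. The NRF1 core GCGCATGC stood in 11.6% of members, 6.15% of tested genes and 2.71% of all promoters, and the YY1 core AAGATGG in 18.8%, 8.42% and 6.34%. TATAAA (7.25% of members, 8.16% of tested genes and 13.6% of all promoters) and CCAAT (39.1%, 43.2% and 37.4%) were searched for comparison. The median log2 fold change was -0.25 in the 25 tested members with the ETS core and -0.21 in the 43 without it. For NRF1 it was -0.18 with and -0.25 without the core, and for YY1 -0.17 with and -0.24 without, so that these went the other way. A few stretches upstream of annotated exons are shown for how the ETS core, in capitals on whichever strand it matched, recurs before members with unlike responses. In Mrpl22 the second stretch of capitals is the NRF1 core.
Mrpl22: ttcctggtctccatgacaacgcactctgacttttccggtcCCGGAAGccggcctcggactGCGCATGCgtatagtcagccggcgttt
Mrps18a: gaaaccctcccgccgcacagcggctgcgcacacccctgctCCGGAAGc
Mrps18c: gtgaCTTCCGGcccgggaagcgcgggaa
The Mrpl22 stretch is chr11:58171571-58171657, that of Mrps18a chr17:46110938-46110985 and that of Mrps18c chr5:100798599-100798626, all plus strand, GRCm38.p6. The last is the whole gap between the annotated starts of Mrps18c and Helq. These members had log2 fold changes of -0.15, -0.17 and -0.47, so that the shared core went with both small and large decreases.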

How the data were processed

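Single reads had been mapped by the authors with STAR 2.5.1b (GRCm38, GENCODE M8), and they deposited estimated counts per gene from featureCounts 1.5.0-p1. Some values are fractions of a read, and the setting behind them is not given in the sources used here. Here counts were rounded, filtered (filterByExpr, minimum count 10), scaled by TMM and tested over all genes with edgeR 4.0.16 in R 4.3.3. The SE was derived from the F statistic. The study's limma-voom was an alternative (limma 3.58.1), as was DESeq2 1.42.0. The length offset was a loess curve (span 0.5). Lengths and symbols came from GENCODE M21, since M8 was not used here. A simulation with known changes recovered 52% of 1.2-fold and 76% of 1.5-fold changes among 14579 genes. The floor of Mrpl53 covers counting error only. The SE and the SD take in the spread between libraries.

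Members and gene lists were chosen with earlier results of these data known. Genes were named by rule: the 6 lowest and 6 highest log2 fold changes among members that passed with separate ranges, the 3 smallest changes, the 4 highest and 4 lowest Fresh levels per kilobase, the Mrps18 paralogs, the stalk genes, Mrpl44, Mrpl45 and Mrps12, untested or ambiguous members, subunits with other symbols, and up to 4 genes from each factor list.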

Additional observations from a re-analysis of the deposited data

How the results depend on the processing

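With DESeq2 size factors, limma-voom or a filter of 1 CPM in every library, the same 59 members were lower. The DESeq2 test gave 53, no filter 65 and thinning to the smallest library 48. Over all genes, these settings called 5955, 7637 and 5285 in either direction, where the first edgeR test called 7479. The GC offset gave 64 lower and 1 higher, the exonic length offset 47 and 2, and the principal transcript length offset, added after seeing the data, 42 and 3. The median log2 fold change of the members was -0.275 without a filter, -0.164 with the exonic and -0.147 with the principal transcript length offset. Without a filter the median over all genes moved down as well, from -0.0074 to -0.0644, so that the calls gained there came with a general shift. A test against a 1.2-fold change (glmTreat) kept 10 members, 5 per subunit, beside 2.82% of all genes lower, and a minimum log2 change of 1 in either direction kept 0 (edgeR), where 59 had passed without it in edgeR and in limma-voom. With the exonic length offset Mrpl22 was at 0.0151, Mrps15 at 0.106 and Mrps2 at 0.0339. With the principal transcript length offset the values were 0.0429 for Mrpl22, 0.0532 for Mrpl42, 0.148 for Mrps15 (called higher), 0.0337 for Mrps2, 0.0072 for Mrps18a and 0.00576 for Mrps36. Mrps15 was at 0.0635 with the GC offset. These offsets subtract a trend over all genes by construction. At the depth of the shallowest library, then, 48 of the 77 tested members were called lower.

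Leaving out 1 library at a time gave 54 to 59 lower and 0 higher members (38 to 41 large and 16 to 18 small subunit), medians of -0.244 to -0.212 and log2 ratios of the summed level of -0.259 to -0.229, and 51 members were lower in every such fit. Over all genes, 6357 to 7273 were called in either direction in these fits. Mrpl19, not called in these fits, ranged from -0.0771 to 0.0315. It was above 0 without Fresh 1 (0.00745) and without RNA-Best 2 (0.0315).

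Deviations from the group means hardly correlated between libraries of the same replicate number (-0.00541, 0.0348 and 0.00248). Within RNA-Best the spread was near counting error (chi-square per gene of 1.08 to 1.29), so this cannot decide whether the samples were paired. A replicate block gave 58 lower members, without Mrpl22 (adjusted p = 0.052) and Mrpl3 (0.0546). It called 7472 of all genes in either direction. The block with the exonic length offset gave 50 lower and 1 higher, with a median of -0.169, and Mrpl22 at 0.0242, Mrps15 at 0.0913 and Mrps2 at 0.0385. With it 5788 of all genes were called in either direction.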
